A study of Bos taurus with 18 samples.

Results

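The comparison set day 7 against day 4 of an untreated estrous cycle in the endometrium of 3 Holstein cows (Bos taurus), cows D, E and F. Its members are the 6 libraries of these cows from that cycle, of 18 libraries in the series, and each cow's day 7 library was paired with its own day 4 library by the letter in the labels. The day 7 group and the day 4 group hold 3 libraries each, 1 per cow. No cow had received a progestogen when these samples were taken. The name P4 arm refers to a later, second synchronized cycle, in which the same cows were given 100 mg of progesterone (P4) on day 4. A further 3 cows, A, B and C, gave untreated day 7 and day 4 libraries in the same way and were assigned to the 17-OHPC/P4 arm (100 mg of 17α-hydroxyprogesterone caproate with 10 mg of P4 in the second cycle). All cows were synchronized with Ovsynch, a schedule of hormone injections that times ovulation, so both days of the control cycle follow it, and day 0 was the day of estrus. The sources used here do not give the cows' age, parity or blood progesterone. Cells were brushed once from the horn ipsilateral to the corpus luteum, so each library is a mixture of the cells that a cytobrush lifts, and poly(A) RNA was sequenced.

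In the cow the corpus luteum forms after ovulation and its progesterone output climbs through the first week of the cycle. Progesterone acts on the endometrium through the nuclear receptor PGR, which lowers its own gene and that of the estrogen receptor in uterine epithelium over the luteal phase. Under progesterone the glands and the surface epithelium turn from the growth of the estrogen phase to secretion and transport, and the fluid they make feeds an embryo that has not yet attached. Day 7 is about when a bovine embryo is a blastocyst in the uterus.

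Total counts of the 6 libraries ranged from 30784249 to 40733544, with a mean of 33024370 ± 3595019 on day 7 and 38031932 ± 2344950 on day 4 (SD, n = 3 each). Levels are given in CPM, read counts scaled by library size after TMM normalization, in the order of cows D, E and F, and changes as log2 of day 7 over day 4. The day 7 library of cow F stood apart from the other libraries. In a principal component analysis of the 1000 most variable genes, the first component (55.8% of the variance) separated the days, with scores of 61.3, 45.1 and 28.8 on day 7 and -35.1, -48.5 and -51.5 on day 4. The second component (23.7%) set cow F's day 7 library at 63.9, against -24.6 to 1.65 for the other 5. That library was high in summed markers of ciliated cells (170.2, 95.3 and 775 CPM on day 7, against 277, 300.2 and 184 CPM on day 4) and of secretory epithelium (1076, 1334 and 3659 CPM on day 7, against 1109, 1537 and 1178 CPM on day 4). It was low in summed stromal fibroblast markers (3928, 1739 and 335 CPM on day 7, against 2516, 1659.7 and 1841 CPM on day 4). The secretory sum did not reflect all its members, as the median log2 change of the 8 tested was 0.09 in cow F. Among the defining secretory markers on day 7, FOXA2 was highest in cow F (4.05, 1.63 and 39.7 CPM). SOX17 was lowest there (492, 529 and 346 CPM) and PAX8 lay in between (45.5, 67 and 54.5 CPM). Results that rest on cow F's day 7 library are given with and without it below.

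The defining markers of epithelium were present in every library. EPCAM, the epithelial adhesion molecule, stood at 434, 383 and 592 CPM on day 7, against 448, 546 and 526 CPM on day 4, and the keratin KRT8 at 334, 351 and 801 CPM on day 7, against 619.6, 705 and 565 CPM on day 4. Neither passed the test (adjusted p = 0.817 and 0.378, edgeR's quasi-likelihood test). Summed epithelial markers were 5138, 5213 and 5728 CPM on day 7, against 5455, 6168 and 4971 CPM on day 4. Of 14 tested 1 was called higher (7.14%, against 7.82% of all genes), the claudin CLDN7 (1.29 ± 0.34, adjusted p = 0.0286). That call was lost without the library of cow D day 7 (adjusted p = 0.188), cow E day 7 (0.139), cow D day 4 (0.077), cow E day 4 (0.116) or cow F day 4 (0.0901). Without cow F's day 7 library 4 epithelial markers were called lower. Stromal collagens, macrophage and T cell genes were also detected in every library. Red blood cell genes were at or near 0, with at most 4.50 CPM for 5 markers together. In such bulk samples, fewer cells of a type and less RNA per cell cannot be told apart.

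**Figure D1:**
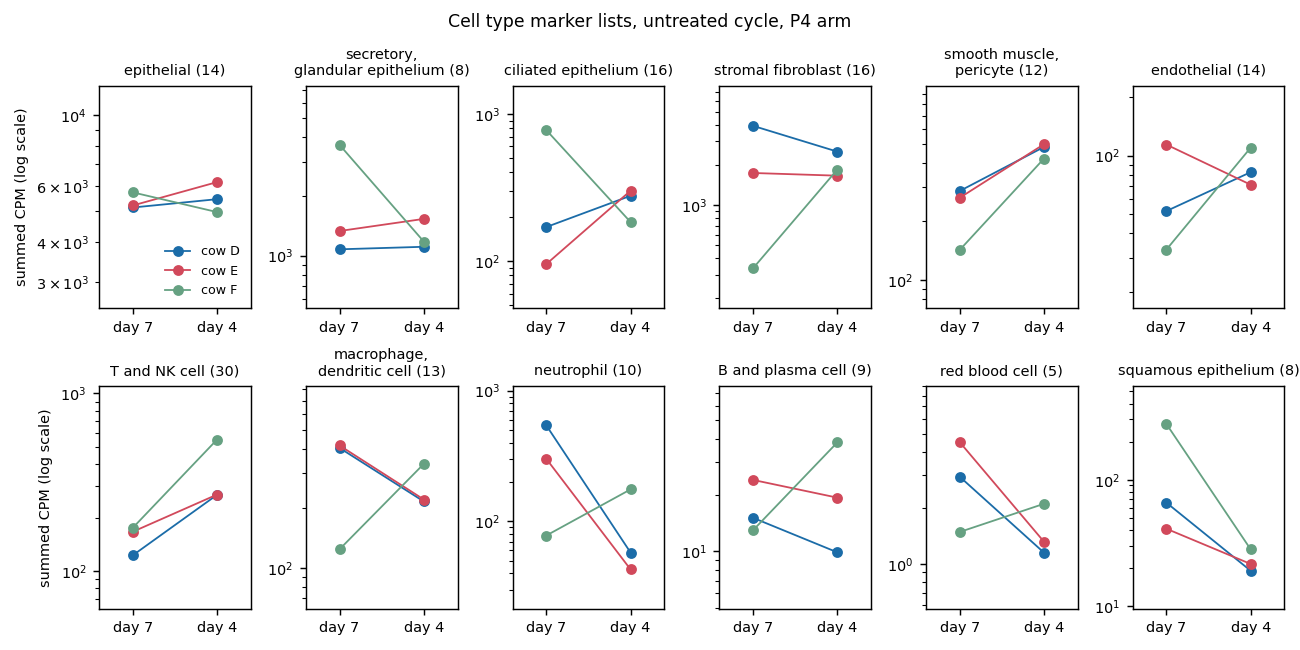
Summed CPM (log axis) of 12 cell type marker lists on day 7 and day 4 of the untreated cycle in cows D, E and F, 1 line per cow, with the number of genes tested in brackets. Epithelial sums lie between 4971 and 6168 CPM, T and NK cell sums are lower on day 7 in each cow, and cow F goes the other way from cows D and E in the epithelial, secretory, ciliated, stromal, macrophage, neutrophil, B cell and red blood cell panels.

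Of 19638 genes tested, 1535 rose on day 7 (7.82%) and 1440 fell (7.33%) at an adjusted p under 0.05 by edgeR's quasi-likelihood test with the cow as a block. The changes ran the same way in 3 of 3 cows for 1533 of the risers and for all 1440 that fell. The same cows' values made the calls, so this agreement is not independent evidence. The median log2 change was 1.35 among risers and -1.23 among those that fell, and 471 rose and 367 fell by at least 2 on the log2 scale. Day 7 values lay wholly above day 4 values in 16.1% of all genes tested and wholly below in 18.0%. Over all genes the median log2 change was -0.05. The counts lean on single libraries. They were 441 higher and 329 lower without cow D's day 7 library, 528 and 348 without cow E's, 2015 and 2228 without cow F's, and 737 and 496, 950 and 725, or 629 and 565 without the day 4 library of cow D, E or F. Without the cow as a block 912 rose and 786 fell. Of the 2975 called genes, 594 (20.0%) were called whichever 1 of the 6 libraries was left out, and none changed sign.

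Among the genes that rose with the smallest p, several were low on day 4. MYH7B (ENSBTAG00000003512), a myosin heavy chain of slow muscle type, had 837, 1016 and 278 CPM on day 7, against 11.6, 12.7 and 10.5 CPM on day 4. It rose by 5.90 ± 0.52 (SE; adjusted p = 0.000589). LY6G6E (ENSBTAG00000000582), a small surface protein of the LY6 family, had 326, 339.8 and 410.0 CPM on day 7, against 42.8, 37.7 and 38.1 CPM on day 4. Its 3 day 7 values lay close together and well above day 4, a log2 change of 3.17 ± 0.26 (SE; adjusted p = 0.000483). SAT1 (ENSBTAG00000017363), which acetylates spermidine and spermine, had 1937, 1552 and 828 CPM on day 7, against 157, 125 and 163 CPM on day 4, and rose by 3.22 ± 0.32 (SE; adjusted p = 0.000914). NUPR1, a stress-induced regulator of transcription, had 149, 101 and 56.6 CPM on day 7, against 5.97, 3.35 and 3.46 CPM on day 4, a change of 4.57 ± 0.39 (SE; adjusted p = 0.000483). In all 4 genes every day 7 value was above every day 4 value. The groups did not overlap in 96.1% of the 2975 called genes, so this separation is not independent evidence. In MYH7B, SAT1 and NUPR1 cow F had the lowest day 7 level.

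Other risers of this rank came from unrelated families. The secreted ribonucleases RNASE4 (2.54 ± 0.22, adjusted p = 0.000483) and ANG (2.45 ± 0.35, adjusted p = 0.00244) are neighbours whose annotated spans overlap, so reads could be split between them. The membrane protein SMCO4 rose by 3.24 ± 0.27, the kinase DMPK by 4.17 ± 0.42, the ectoenzyme ENPP4 by 3.03 ± 0.31, the imine deaminase RIDA by 2.81 ± 0.29, ICA1 by 2.27 ± 0.22 and CYSTM1 by 1.69 ± 0.17 (adjusted p from 0.000483 to 0.000914). CYSTM1 overlaps PURA. CL46, a bovine collectin of innate defence, had 917 reads over the day 7 libraries and 3 over the day 4 libraries, a ratio of 424 after scaling for library size (exact 95% interval 145 to 2060, counting error only). Its relative conglutinin, CGN1, had 223 reads on day 7 and 2 on day 4, a ratio of 155 (42.4 to 1290). Both intervals pool the cows and take every read as independent, so they may be too narrow. Each of these genes was called whichever library was left out.

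The genes that fell with the smallest p were led by EPHB4, MEX3A and ZNF84. MEX3A (ENSBTAG00000019158), an RNA-binding protein of the MEX3 family, had 0.788, 1.39 and 1.34 CPM on day 7, against 16.2, 23.6 and 17.1 CPM on day 4. It fell by 4.04 ± 0.38 on the log2 scale (SE; adjusted p = 0.000717). EPHB4 (ENSBTAG00000003446), a receptor tyrosine kinase for ephrin B2, had 19.9, 23.8 and 30.7 CPM on day 7, against 104, 138 and 103 CPM on day 4, a change of -2.23 ± 0.20 (SE; adjusted p = 0.000641). UTRN, encoding utrophin, the dystrophin relative that ties the actin cortex to the matrix, had 98.1, 86.1 and 95.2 CPM on day 7, against 192, 231 and 240.1 CPM on day 4, a change of -1.24 ± 0.14 (SE; adjusted p = 0.00101). The day 7 and day 4 values of these 3 genes did not overlap, as was the case in 96.1% of called genes. Also lower were the zinc finger gene ZNF84 (-1.75 ± 0.16), PALD1 (-3.13 ± 0.37), the pseudokinase PRAG1 (-2.06 ± 0.22), NREP (-1.94 ± 0.22), the matrix protein THSD4 (-2.03 ± 0.24), FAM234B (-1.40 ± 0.17), NT5C3B (-1.38 ± 0.16) and ZNF286A (-1.23 ± 0.15), with adjusted p from 0.000717 to 0.00131. All of them were called whichever library was left out.

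**Figure D2:**
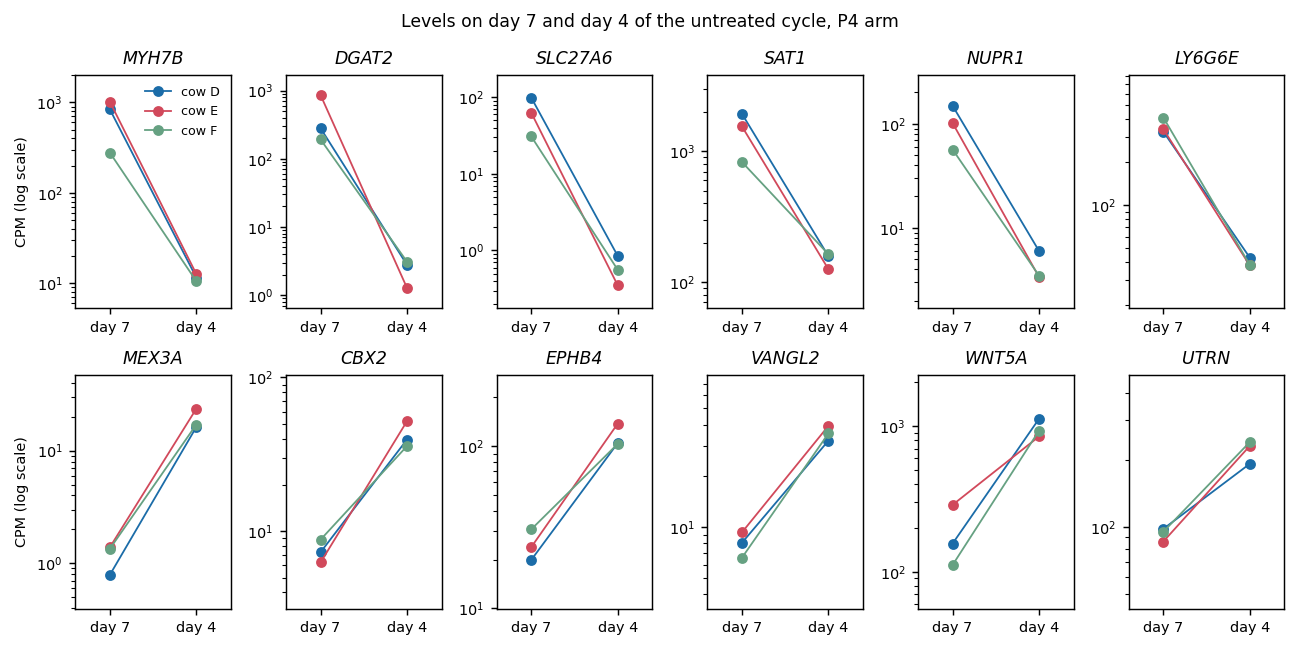
CPM (log axis) of 6 genes that rose (upper row) and 6 that fell (lower row) on day 7 and day 4 of the untreated cycle, 1 line per cow. Every line of the upper row is higher on day 7 and every line of the lower row is lower on day 7, and for MYH7B, SLC27A6, SAT1 and NUPR1 the lowest day 7 point is cow F.

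The receptors of the ovarian steroids were among the less secure calls. PGR (ENSBTAG00000024648), the progesterone receptor, had 44.7, 32 and 44.4 CPM on day 7, against 108, 70.9 and 74.1 CPM on day 4, a change of -1.05 ± 0.25 (SE; adjusted p = 0.0194). Every day 7 value was below every day 4 value. The PGR call was lost without the library of cow D day 7 (adjusted p = 0.0984), cow E day 7 (0.0932), cow D day 4 (0.0814), cow E day 4 (0.0662) or cow F day 4 (0.0504), and without the animal block (0.0835). ESR1 (ENSBTAG00000007159), the estrogen receptor alpha, had 207, 282 and 541 CPM on day 7, against 714, 625 and 652 CPM on day 4, with cow F's day 7 level the nearest to day 4. Its change was -1.01 ± 0.31 (SE; adjusted p = 0.0493), and the call was lost without the library of cow D day 7 (adjusted p = 0.194), cow E day 7 (0.177), cow D day 4 (0.154), cow E day 4 (0.138) or cow F day 4 (0.0807), and without the animal block (0.0675). GPER1, a membrane receptor for estrogen, had 11.9, 21.5 and 5.91 CPM on day 7, against 2.35, 3.51 and 2.48 CPM on day 4, and rose by 2.13 ± 0.57 (SE; adjusted p = 0.0317). That call was lost without the library of cow D day 7 (adjusted p = 0.182), cow E day 7 (0.112), cow D day 4 (0.0941), cow E day 4 (0.116) or cow F day 4 (0.0881), and without the animal block (0.0585), and GPER1 overlaps a second gene, C25H7orf50. OXTR, the oxytocin receptor, had 199, 296 and 423 CPM on day 7, against 1353, 722 and 1149 CPM on day 4. Its groups did not overlap, but its change of -1.92 ± 0.65 did not pass (adjusted p = 0.0702), and it overlaps CAV3 and SSUH2. Of 22 steroid receptors, coactivators and co-chaperones 1 rose (4.55%, against 7.82% of all genes) and 5 fell (22.7%, against 7.33%). The median was -0.07 (-0.27 without the library of cow F day 7 and 0.22 without the library of cow D day 7). The count of those that fell ran from 0 without the library of cow D day 4 or cow D day 7 or cow F day 4 to 5 without that of cow F day 7, and 1 fell without the animal block.

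Genes known to respond to early luteal progesterone in ruminant endometrium included several strong risers. Of 29 members tested, 8 rose (27.6%, against 7.82% of all genes), 1 fell (3.45%, against 7.33%) and 22 had positive values. The list median was 1.94 (0.77 without the library of cow D day 7). The list was drawn from knowledge of this tissue and with earlier results of these data known, so its direction is not independent evidence. The median was 1.43, 2.22 and 0.27 in cows D, E and F. SLC1A1, an importer of glutamate and aspartate, had 2125, 1766 and 963 CPM on day 7, against 217, 122 and 143 CPM on day 4, and rose by 3.34 ± 0.40 (SE; adjusted p = 0.00129). SLC1A1 overlaps SPATA6L. The aminopeptidase ANPEP rose by 5.22 ± 0.68 and the brush border metalloprotease MEP1B by 4.36 ± 0.46 (adjusted p from 0.000914 to 0.00197). MEP1B was low, at 13.5, 11.9 and 4.84 CPM on day 7, against 0.45, 0.395 and 0.607 CPM on day 4. These 3 calls held whichever library was left out. The chemokine CXCL14 rose by 4.72 ± 1.03 (adjusted p = 0.0137), a call lost without the library of cow E day 7 (adjusted p = 0.0626), cow E day 4 (0.0592) or cow F day 4 (0.0639). The arginine transporter SLC7A1 was the member that fell (-0.72 ± 0.17, adjusted p = 0.0205), lost without the library of cow D day 7 (adjusted p = 0.091), cow E day 7 (0.0958), cow D day 4 (0.11) or cow E day 4 (0.0727), and without the animal block (0.0538). The count of risers ran from 5 without the library of cow E day 7 or cow F day 4 to 9 without that of cow F day 7.

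The triglyceride and lipid droplet genes that rose were led by DGAT2. DGAT2 (ENSBTAG00000055742), which makes triglyceride from diacylglycerol, had 281, 863 and 193 CPM on day 7, against 2.77, 1.27 and 3.08 CPM on day 4. It rose by 7.18 ± 0.74 (SE; adjusted p = 0.000914), and cow E had both the highest day 7 and the lowest day 4 level. PLIN2, which coats lipid droplets, had 395, 309 and 269.7 CPM on day 7, against 65.1, 49 and 42 CPM on day 4, and rose by 2.64 ± 0.29 (SE; adjusted p = 0.000973). Of 27 triglyceride and lipid droplet genes 4 rose (14.8%, against 7.82% of all genes) and none fell. The median was 0.18 (-0.02 without the library of cow D day 7 and 0.40 without the library of cow F day 7). The other risers were lipolytic, the monoglyceride lipase MGLL (2.58 ± 0.50, adjusted p = 0.00869) and the lipase coactivator ABHD5 (2.20 ± 0.46, adjusted p = 0.0116). The MGLL call was lost without the library of cow D day 7 (adjusted p = 0.0602) or cow E day 7 (0.0515), and that of ABHD5 without the library of cow D day 7 (adjusted p = 0.0567) or cow D day 4 (0.0711). The count of risers ran from 2 without the library of cow D day 7 to 6 without that of cow F day 7, and 3 members were called lower without that last library.

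Genes of fatty acid handling included 10 risers among 38 tested (26.3%, against 7.82% of all genes). Of the 38, 2 fell (5.26%, against 7.33%) and 29 were positive, with a median of 0.52 (0.34 without the library of cow D day 7 and 0.79 without the library of cow F day 7). SLC27A6 (ENSBTAG00000004860), a fatty acid transporter of the plasma membrane, had 98.6, 62.7 and 30.7 CPM on day 7, against 0.85, 0.351 and 0.561 CPM on day 4, and rose by 6.83 ± 0.80 (SE; adjusted p = 0.00127). Its day 4 values were all under 1 CPM. The acyl-CoA ligase ACSL3 had 1006, 1189.6 and 560.1 CPM on day 7, against 313, 184 and 116 CPM on day 4, and rose by 2.19 ± 0.41 (SE; adjusted p = 0.00749), lost without the library of cow D day 7 (adjusted p = 0.0529). The peroxisomal enzyme HSD17B4, which also oxidizes estradiol, had 536, 410.0 and 221 CPM on day 7, against 150.4, 85.8 and 68.1 CPM on day 4, and rose by 1.95 ± 0.36 (SE; adjusted p = 0.00734), lost without the library of cow D day 7 (adjusted p = 0.0603). The 2 members that fell were CPT1C, the brain-type carnitine acyltransferase, and the peroxisomal oxidase ACOX3. CPT1C changed by -1.84 ± 0.48 (SE; adjusted p = 0.027), lost without the library of cow D day 7 (adjusted p = 0.119), cow E day 7 (0.139), cow D day 4 (0.062), cow E day 4 (0.102) or cow F day 4 (0.0686), and without the animal block (0.0948). ACOX3 changed by -0.61 ± 0.12 (SE; adjusted p = 0.00835), lost without the library of cow D day 7 (adjusted p = 0.0533) or cow E day 7 (0.0582). The count of risers ran from 2 without the library of cow D day 7 to 13 without that of cow F day 7 (6 without the animal block), and that of members that fell from 0 without the library of cow D day 7 or cow E day 7 to 5 without that of cow F day 7 (1 without the animal block).

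Of the cholesterol and steroid metabolism genes tested, 18.5% and 26.3% rose, against 7.82% of all genes. Of 27 cholesterol genes 5 rose and none fell, with a median of 0.38 (0.21 without the library of cow F day 4), but none was called without the animal block and the count ran from 0 without the library of cow D day 7 to 9 without that of cow F day 7. Its leading member, the sterol oxidase MSMO1, had 1871, 846 and 699.8 CPM on day 7, against 457, 289 and 354 CPM on day 4, and rose by 1.58 ± 0.31 (SE; adjusted p = 0.00857), lost without the library of cow D day 7 (adjusted p = 0.069), and without the animal block (0.0755). Of 19 steroid metabolism genes 5 rose and 1 fell, with risers running from 1 without the library of cow D day 7 to 6 without that of cow F day 7. The 17β-hydroxysteroid dehydrogenase HSD17B14 was low, at 3.83, 0.797 and 3.7 CPM on day 7, against 0.6, 0.175 and 0.304 CPM on day 4, and rose by 2.87 ± 0.47 (SE; adjusted p = 0.00422), and was called whichever library was left out. HSD11B2, which inactivates cortisol, had 2.47, 4.29 and 9.88 CPM on day 7, against 59.2, 29.6 and 22.5 CPM on day 4, a change of -2.76 ± 0.84 (SE; adjusted p = 0.0486) that was lost without the library of cow D day 7 (adjusted p = 0.211), cow E day 7 (0.187), cow D day 4 (0.163), cow E day 4 (0.0618) or cow F day 4 (0.0829), and without the animal block (0.0533).

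The polyamine genes that rose lay on both the synthetic and the catabolic side. Of 22 tested 5 rose (22.7%, against 7.82% of all genes) and 1 fell (4.55%, against 7.33%), with a median of 0.42. Beside SAT1, ODC1, the first and rate-limiting enzyme of synthesis, had 1962, 1654 and 845 CPM on day 7, against 359, 168 and 111 CPM on day 4, and rose by 2.89 ± 0.57 (SE; adjusted p = 0.00897). The ODC1 call was lost without the library of cow D day 7 (adjusted p = 0.05) or cow E day 7 (0.055), and each cow showed the rise. The spermine synthase SMS rose by 1.43 ± 0.31 (SE; adjusted p = 0.0136), lost without the library of cow D day 7 (adjusted p = 0.0733), cow E day 7 (0.0672), cow D day 4 (0.0694) or cow F day 4 (0.0652). The count of risers ran from 1 without the library of cow D day 7 or cow E day 7 to 6 without that of cow F day 7.

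Genes of protein folding and export in the endoplasmic reticulum (ER) rose in part. Of 37 unfolded protein response and folding genes 8 rose (21.6%, against 7.82% of all genes), none fell (against 7.33%) and 28 were positive. The median was 0.41 (0.20 without the library of cow F day 4). Medians within cows D, E and F were 0.32, 0.34 and 0.52. ERO1A, the oxidase that drives disulfide formation, had 618, 619 and 200.03 CPM on day 7, against 44, 43.5 and 37.7 CPM on day 4, and rose by 3.52 ± 0.60 (SE; adjusted p = 0.00524), and was called whichever library was left out. The co-chaperone DNAJB9 had 147, 87.8 and 74.9 CPM on day 7, against 31.9, 17.2 and 17.1 CPM on day 4, and rose by 2.24 ± 0.41 (SE; adjusted p = 0.00697), lost without the library of cow D day 7 (adjusted p = 0.054). The ubiquitin ligase SYVN1, which clears misfolded proteins, rose by 2.35 ± 0.46 (SE; adjusted p = 0.0094). It overlaps MRPL49, and its call was lost without the library of cow D day 7 (adjusted p = 0.0737) or cow E day 7 (0.0565). XBP1, the transcription factor of the pathway, had 371, 215 and 308 CPM on day 7, against 207, 126 and 149 CPM on day 4, a change of 0.88 ± 0.24 (SE; adjusted p = 0.033) lost without the library of cow D day 7 (adjusted p = 0.139), cow E day 7 (0.116), cow D day 4 (0.0834), cow E day 4 (0.0739) or cow F day 4 (0.147), and without the animal block (0.0838). HSPA5, its main chaperone, had 1223, 1130.4 and 880.0 CPM on day 7, against 792, 583 and 547 CPM on day 4. Every day 7 value was above every day 4 value, yet the change of 0.75 ± 0.41 did not pass (adjusted p = 0.238). The count of risers ran from 1 without the library of cow D day 7 to 9 without that of cow F day 7 (5 without the animal block).

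Genes of the translocon and the early secretory pathway had small positive values for the most part. Of 57 genes 8 rose (14.0%, against 7.82% of all genes), none fell and 47 were positive, with a median of 0.32 (0.16 without the library of cow F day 4), against -0.05 over all genes. The coatomer subunit ARCN1 had 417, 335 and 375 CPM on day 7, against 193, 150.2 and 148 CPM on day 4, and rose by 1.20 ± 0.24 (SE; adjusted p = 0.00931), lost without the library of cow D day 7 (adjusted p = 0.0507), cow E day 7 (0.0623) or cow F day 4 (0.0531). The COPII coat subunit SEC24D rose by 1.32 ± 0.31 (SE; adjusted p = 0.0177), lost without the library of cow D day 7 (adjusted p = 0.0656), cow E day 7 (0.0839) or cow F day 4 (0.054), and overlaps SYNPO2. The count ran from 0 without the library of cow E day 7 or cow F day 4 to 7 without that of cow F day 7. Among 42 autophagy and lysosome genes 8 rose (19%, against 7.82% of all genes) and 2 fell (4.76%, against 7.33%). Risers ran from 3 without the library of cow D day 4 or cow D day 7 to 15 without that of cow F day 7 (5 without the animal block). MAP1LC3A, which coats autophagosome membranes, had 547, 449.7 and 190.3 CPM on day 7, against 18.8, 24.7 and 29 CPM on day 4, and rose by 3.97 ± 0.53 (SE; adjusted p = 0.002). WIPI1, which binds phosphoinositides where these membranes form, had 50.4, 35.3 and 35.2 CPM on day 7, against 5.35, 5.66 and 5.51 CPM on day 4, and rose by 2.86 ± 0.38 (SE; adjusted p = 0.002). Both held whichever library was left out, and WIPI1 overlaps ARSG.

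**Figure D3:**
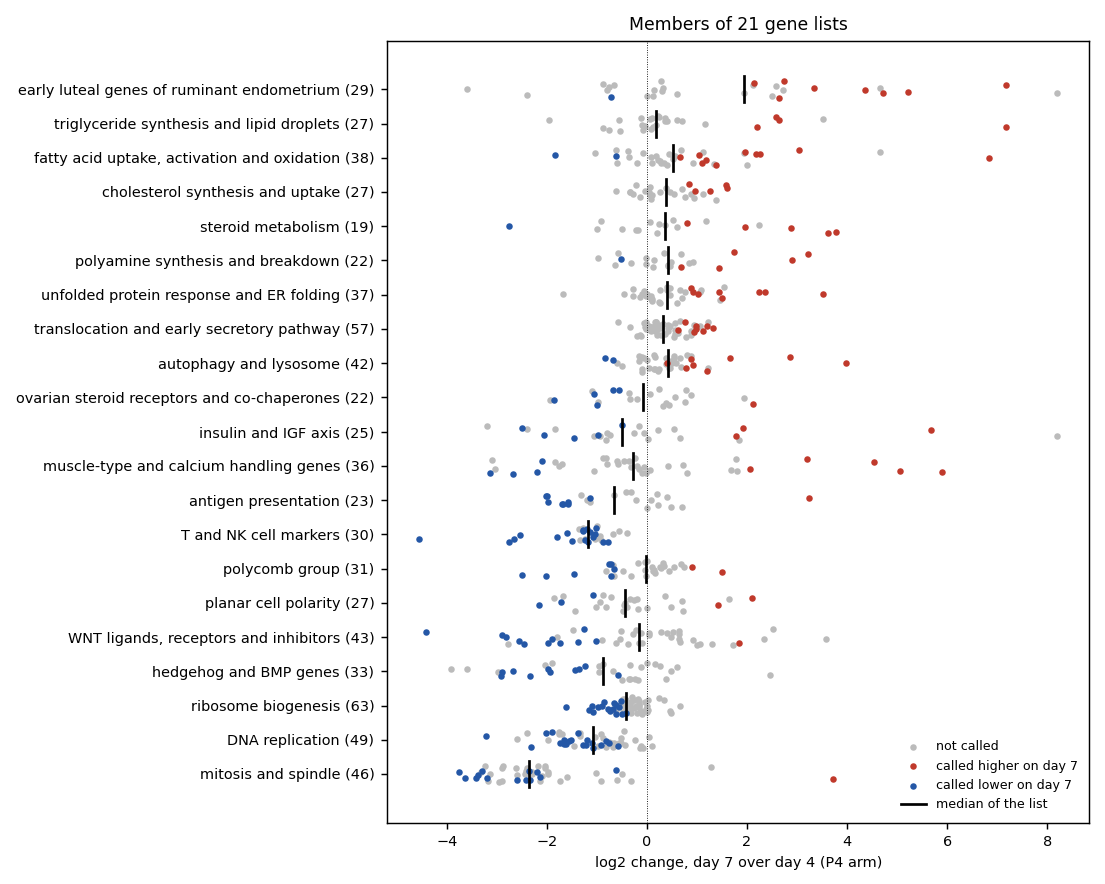
Log2 change on day 7 over day 4 for each member of 21 gene lists (number tested in brackets), with genes called higher in red, called lower in blue and not called in grey, and the list median as a bar. DNA replication, mitosis, hedgehog and BMP, and T and NK cell lists lie mostly left of 0, while the 47 positive values of 57 secretory pathway genes crowd just right of it.

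The muscle-type and calcium handling list held several of the strongest risers. It was drawn up with earlier results of these data known, so their presence in it is not independent evidence. Of 36 tested 5 rose (13.9%, against 7.82% of all genes) and 4 fell (11.1%, against 7.33%). The median was -0.27, and 24 values were negative. Those that fell ran from 1 without the library of cow D day 7 or cow E day 7 to 5 without that of cow F day 7 (1 without the animal block). Beside MYH7B, the protein kinase A anchor AKAP6 had 179.9, 224 and 82.5 CPM on day 7, against 8.87, 7.48 and 4.04 CPM on day 4, and rose by 4.54 ± 0.54 (SE; adjusted p = 0.00129). The endolysosomal cation channel MCOLN3 had 383, 188 and 64.9 CPM on day 7, against 8.7, 3.79 and 5.28 CPM on day 4, and rose by 5.06 ± 0.53 (SE; adjusted p = 0.000914). The calcium-binding protein SRL rose by 3.20 ± 0.35 (SE; adjusted p = 0.00101). These 4 genes were called whichever library was left out. Summed smooth muscle and pericyte markers went the other way (286, 264 and 142 CPM on day 7, against 482, 498 and 420.2 CPM on day 4), and their part in the result was not tested. Of the 12 tested 11 had negative values, and medians within cows D, E and F were -0.51, 0.01 and -3.78. The defining genes MYH11 (0.18 ± 0.19), ACTA2 (-0.04 ± 0.69) and CNN1 (-1.655 ± 1.26) were not called, and MYH11 was slightly higher on day 7 in each cow. Among the 4 muscle-type and calcium handling genes that fell, TRPV6, an epithelial calcium entry channel, had 4.55, 13.5 and 8.31 CPM on day 7, against 60.8, 60.9 and 75.7 CPM on day 4. Its change was -3.14 ± 0.61 (SE; adjusted p = 0.00856), lost without the library of cow D day 7 (adjusted p = 0.0572), and without the animal block (0.0705).

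WNT pathway genes were lower where they were called at all, with 1 exception. Of 43 tested 11 fell (25.6%, against 7.33% of all genes) and 1 rose (2.33%, against 7.82%). Yet the median was -0.15 (-0.38 without the library of cow E day 7) and 19 values were positive. The ligand WNT5A, a stromal signal in the mouse uterus, had 156, 288 and 111 CPM on day 7, against 1124, 849 and 932 CPM on day 4. Its change was -2.55 ± 0.53 (SE; adjusted p = 0.0113), lost without the library of cow D day 7 (adjusted p = 0.0621) or cow D day 4 (0.0685). The receptor FZD2 had 4.37, 3.6 and 5.32 CPM on day 7, against 21.1, 28.6 and 21.3 CPM on day 4, a change of -2.46 ± 0.40 (SE; adjusted p = 0.00454). The receptor FZD8 (-1.98 ± 0.32, adjusted p = 0.00421) and the transcription factor TCF7L1 (-1.89 ± 0.28, adjusted p = 0.00282) were lower too, and like FZD2 they held whichever library was left out, while TCF7L1 was at 0.0503 without the animal block. AXIN2, a feedback target of the pathway, had -1.37 ± 0.26 (SE; adjusted p = 0.00769), lost without the library of cow D day 7 (adjusted p = 0.054), and without the animal block (0.0822). The secreted inhibitor SFRP2 was the member that rose (1.84 ± 0.45, adjusted p = 0.0219), lost without the library of cow D day 7 (adjusted p = 0.0637), cow E day 7 (0.0882), cow D day 4 (0.0882), cow E day 4 (0.0808) or cow F day 4 (0.0639), and without the animal block (0.0899). The count of those that fell ran from 3 without the library of cow D day 7 to 11 without that of cow F day 7 (5 without the animal block).

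Hedgehog and BMP genes gave no call upwards. Of 33 tested 10 fell (30.3%, against 7.33% of all genes), and 27 had negative values, with a median of -0.88 (-0.55 without the library of cow F day 7). Medians within cows D, E and F were -0.65, -0.52 and -1.08. SMO, the membrane transducer of hedgehog signals, had 6.45, 5.71 and 14.9 CPM on day 7, against 53.7, 78.1 and 69.6 CPM on day 4, a change of -2.92 ± 0.52 (SE; adjusted p = 0.00644). ID3, a target of BMP signals that blocks differentiation factors, had 17.5, 13.9 and 26.3 CPM on day 7, against 81.1, 93.8 and 115 CPM on day 4, a change of -2.33 ± 0.44 (SE; adjusted p = 0.0075). The inhibitory SMAD7 had -1.36 ± 0.25 (SE; adjusted p = 0.00729), at 0.0644 without the animal block. The 3 calls held whichever library was left out, and the count ran from 4 without the library of cow D day 7 or cow E day 7 to 9 without that of cow F day 7 (4 without the animal block). Summed stromal markers were also low in cow F's day 7 library, and their part in the result was not tested.

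Planar cell polarity genes, which align epithelial cells within the sheet, were called about as often as genes in general. Of 27 tested 3 fell (11.1%, against 7.33% of all genes) and 2 rose (7.41%, against 7.82%). VANGL2 (ENSBTAG00000006560), a core membrane component, had 8.06, 9.28 and 6.58 CPM on day 7, against 32.3, 39.4 and 35.6 CPM on day 4, a change of -2.16 ± 0.26 (SE; adjusted p = 0.00129). Its paralog VANGL1 had 18.7, 27.7 and 28.4 CPM on day 7, against 45.5, 66 and 44.1 CPM on day 4, a change of -1.07 ± 0.16 (SE; adjusted p = 0.00345), and the co-receptor PTK7 was lower by the same test (-1.71 ± 0.29, adjusted p = 0.00549). The cytoplasmic component PRICKLE1 rose by 2.09 ± 0.25 (SE; adjusted p = 0.00127). All 4 held whichever library was left out. VANGL2 overlaps a second protein-coding annotation. The list median was -0.43. The count that fell ran from 3 without the library of cow D day 4 or cow D day 7 or cow E day 7 to 6 without that of cow F day 7, and that of risers from 1 without the library of cow D day 4 or cow D day 7 or cow E day 4 or cow E day 7 or cow F day 4 to 5 without that of cow F day 7 (1 without the animal block). Of 31 polycomb group genes, which keep genes silent through histone marks, 7 fell (22.6%) and 2 rose (6.45%), against 7.33% and 7.82% of all genes. Their median was -0.01, with 14 positive and 17 negative values. Those that fell ran from 1 without the library of cow E day 7 to 7 without that of cow F day 7. Risers ran from 0 without the library of cow D day 7 or cow E day 7 or cow F day 4 to 5 without that of cow F day 7 (0 without the animal block). The chromobox protein CBX2 had 7.31, 6.27 and 8.82 CPM on day 7, against 39.5, 52 and 35.8 CPM on day 4, and a change of -2.49 ± 0.30 (SE; adjusted p = 0.00131), and was called whichever library was left out. Of 16 RNA-binding proteins of the MEX3 group and related families 4 fell (25%) and 1 rose (6.25%). Those that fell ran from 1 without the library of cow D day 7 or cow E day 7 to 4 without that of cow F day 7 (2 without the animal block). Beside MEX3A they included MEX3D, with -0.86 ± 0.17 (SE; adjusted p = 0.00846), lost without the library of cow D day 7 (adjusted p = 0.0556) or cow E day 7 (0.0603).

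Nearly all genes of DNA replication and mitosis had lower values on day 7, and a part of them passed the test. Of 49 DNA replication genes 20 fell (40.8%, against 7.33% of all genes), none rose and 47 were negative, with a median of -1.08. Medians within cows D, E and F were -0.90, -1.61 and -0.81. The helicase subunit MCM3 had 21.6, 25.1 and 35.3 CPM on day 7, against 52.9, 125 and 83.8 CPM on day 4, a change of -1.61 ± 0.26 (SE; adjusted p = 0.00454). MCM4 (-1.52 ± 0.25, adjusted p = 0.00459) and the polymerase subunit POLA1 (-1.27 ± 0.18, adjusted p = 0.00219) were lower too, and all 3 held whichever library was left out. The count ran from 3 without the library of cow E day 7 to 32 without that of cow F day 7. Of 46 mitosis genes 13 fell (28.3%, against 7.33% of all genes) and 1 rose (2.17%, against 7.82%). Of the 46, 44 were negative and 40 had day 7 values wholly below day 4 (18.0% of all genes did), with a median of -2.35. MKI67, a marker of dividing cells, had 14.9, 30.0 and 30.2 CPM on day 7, against 167, 458 and 226.7 CPM on day 4. Its change was -3.37 ± 0.93 (SE; adjusted p = 0.0342), lost without the library of cow D day 7 (adjusted p = 0.122), cow E day 7 (0.14), cow D day 4 (0.111), cow E day 4 (0.0632) or cow F day 4 (0.101). The count of mitosis genes that fell ran from 0 without the library of cow D day 7 or cow E day 7 or cow F day 4 to 29 without that of cow F day 7 (6 without the animal block). It was 38 by DESeq2, 33 by limma voom, 23 in the 6 libraries alone, 3 in the 12 untreated libraries and 2 with no filter on low counts. SPC24, a kinetochore subunit, went the other way. It had 407, 186 and 78 CPM on day 7, against 7.42, 22.2 and 12.8 CPM on day 4, and rose by 3.72 ± 0.75 (SE; adjusted p = 0.00995), lost without the library of cow E day 7 (adjusted p = 0.0583).

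Of 63 ribosome biogenesis genes 17 fell (27.0%, against 7.33% of all genes), none rose and 55 were negative, with a median of -0.41. HEATR1, a factor of small subunit assembly, had 32.8, 48.5 and 39 CPM on day 7, against 89.6, 93.2 and 81.5 CPM on day 4, a change of -1.17 ± 0.17 (SE; adjusted p = 0.00269). TSR1 (-0.98 ± 0.12), NOP2 (-0.86 ± 0.13), RRP8 (-1.10 ± 0.17) and the polymerase I subunit POLR1A (-1.09 ± 0.20) were lower as well (adjusted p from 0.0015 to 0.00729), and these 5 held whichever library was left out. HEATR1 overlaps LGALS8 and TSR1 overlaps SRR. The count ran from 6 without the library of cow D day 7 to 19 without that of cow F day 7, and was 5 in the 6 libraries alone.

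T and NK cell genes were lower on day 7. All 30 T and NK cell markers tested had negative values and 18 fell (60.0%, against 7.33% of all genes), with a median of -1.19. Their sum was 123, 167 and 175 CPM on day 7, against 269, 269.6 and 550.1 CPM on day 4. CD3E, a chain of the T cell receptor complex, had 7.88, 13.6 and 14.4 CPM on day 7, against 16.9, 24.1 and 42.1 CPM on day 4, a change of -1.17 ± 0.21 (SE; adjusted p = 0.00592). The cytokine receptor chain IL2RB had 12, 10.8 and 9.88 CPM on day 7, against 29.3, 22.9 and 41.5 CPM on day 4, a change of -1.49 ± 0.22 (SE; adjusted p = 0.00277). CD2 had -1.28 ± 0.23 (SE; adjusted p = 0.00645), at 0.119 without the animal block. These 3 held whichever library was left out. In each, cow F had the highest day 4 level. The count ran from 4 without the library of cow D day 7 or cow F day 4 to 15 without that of cow E day 4. It was 5 without the animal block and 2 in the 6 libraries alone. PTPRC, carried by all leukocytes, had 65.5, 72.1 and 36.6 CPM on day 7, against 83.4, 64.9 and 119.6 CPM on day 4, overlapping groups and no call (adjusted p = 0.214). Macrophage and neutrophil lists gave 0 calls. Summed macrophage markers were 404, 416 and 124 CPM on day 7, against 216, 221 and 335 CPM on day 4, and summed neutrophil markers 542, 301 and 77.8 CPM on day 7, against 57.7, 42.8 and 175 CPM on day 4.

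Several antigen presentation genes of the class II pathway fell, and HLA-DOB rose. Of 23 tested 8 fell (34.8%, against 7.33% of all genes) and 1 rose (4.35%, against 7.82%), with a median of -0.66 (-0.40 without the library of cow F day 4). Those that fell ran from 0 without the library of cow E day 7 to 8 without that of cow E day 4 (1 without the animal block). CD74, the invariant chain of class II molecules, had 497, 711 and 649 CPM on day 7, against 1770.0, 2579 and 3188 CPM on day 4. Its change was -2.02 ± 0.41 (SE; adjusted p = 0.0107), lost without the library of cow D day 7 (adjusted p = 0.052), cow E day 7 (0.0629) or cow F day 4 (0.0633), and without the animal block (0.05). CIITA, the class II transactivator, had -1.98 ± 0.44 (SE; adjusted p = 0.0154), lost without the library of cow D day 7 (adjusted p = 0.0692), cow E day 7 (0.0715) or cow F day 4 (0.0883), and without the animal block (0.0707). HLA-DOB, a class II chain that modulates peptide loading, had 20.4, 13.8 and 6.22 CPM on day 7, against 1.45, 0.789 and 2.2 CPM on day 4, and rose by 3.23 ± 0.51 (SE; adjusted p = 0.00372), and was called whichever library was left out. B cells carry this gene, and summed B and plasma cell markers were 15.1, 24.1 and 13 CPM on day 7, against 9.9, 19.4 and 38.1 CPM on day 4; their part in the result was not tested.

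In the insulin and IGF axis 5 of 25 genes fell (20%, against 7.33% of all genes) and 3 rose (12%, against 7.82%). The median was -0.49 (-0.17 without the library of cow D day 4). The risers ran from 1 without the library of cow D day 7 or cow E day 7 or cow F day 4 to 4 without that of cow F day 7, and those that fell from 3 without the library of cow D day 4 or cow D day 7 to 5 without that of cow F day 7 (3 without the animal block). IRS1, the docking protein of both receptors, had 33.8, 36.2 and 31.3 CPM on day 7, against 106, 80.8 and 92 CPM on day 4, a change of -1.47 ± 0.22 (SE; adjusted p = 0.00303), and was called whichever library was left out. The binding protein IGFBP4 had -2.05 ± 0.39 (SE; adjusted p = 0.0076), at 0.127 without the animal block. PAPPA2, a protease that cleaves IGF binding proteins, was low at 3.4, 4.4 and 2.24 CPM on day 7, against 0.15, 0.0439 and 0 CPM on day 4, and rose by 5.68 on the log2 scale (adjusted p = 0.00616; 302 reads on day 7, against 8 on day 4). The insulin receptor INSR had 146, 159 and 86.3 CPM on day 7, against 36, 36.3 and 31.9 CPM on day 4, and rose by 1.92 ± 0.39 (SE; adjusted p = 0.0108), lost without the library of cow D day 7 (adjusted p = 0.077), cow E day 7 (0.0662) or cow F day 4 (0.0538). Among glucose genes the transporter SLC2A12 had 24.4, 17.9 and 17.4 CPM on day 7, against 131, 79.9 and 112 CPM on day 4, a change of -2.45 ± 0.45 (SE; adjusted p = 0.00704). PFKFB2, which sets the level of a glycolytic activator, had 1242, 793 and 397 CPM on day 7, against 129, 85 and 57.3 CPM on day 4, and rose by 3.14 ± 0.48 (SE; adjusted p = 0.0034). Both held whichever library was left out, and SLC2A12 overlaps TBPL1. Of 36 glucose genes 5 rose (13.9%, against 7.82% of all genes) and 1 fell (2.78%, against 7.33%). Risers ran from 1 without the library of cow D day 7 or cow E day 4 or cow E day 7 or cow F day 4 to 5 without that of cow F day 7 (3 without the animal block).

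Of 21 progesterone receptor targets 3 rose (14.3%) and 1 fell (4.76%). Of 19 prostaglandin and oxytocin genes 3 rose (15.8%) and 1 fell (5.26%), and of 37 matrix genes 4 rose (10.8%) and 2 fell (5.41%). Among all genes 7.82% rose and 7.33% fell. Risers of the prostaglandin list ran from 0 without the library of cow D day 7 or cow E day 4 or cow E day 7 or cow F day 4 to 3 without that of cow F day 7. EPAS1, a hypoxia-inducible factor known as a progesterone receptor target in human endometrial cells, had 502, 342 and 238 CPM on day 7, against 77.3, 32.8 and 56.9 CPM on day 4, and rose by 2.74 ± 0.38 (SE; adjusted p = 0.00217). TSC22D3, a glucocorticoid and progestin target in human cells, had 400.4, 337 and 253 CPM on day 7, against 121, 57.2 and 49 CPM on day 4, and rose by 2.21 ± 0.35 (SE; adjusted p = 0.00368). Both held whichever library was left out. The target that fell was the cytokine IL15, with -2.01 ± 0.47 (SE; adjusted p = 0.0179), lost without the library of cow D day 7 (adjusted p = 0.0928), cow E day 7 (0.0831), cow D day 4 (0.0504) or cow F day 4 (0.107). TIMP3, an inhibitor of metalloproteases in the matrix, had 1531, 1161 and 432 CPM on day 7, against 78.5, 133 and 92.6 CPM on day 4, and rose by 3.29 ± 0.63 (SE; adjusted p = 0.0084), lost without the library of cow E day 7 (adjusted p = 0.055), and TIMP3 overlaps SYN3. AKR1B1, a prostaglandin F synthase in bovine endometrium, had 2468, 1659 and 812 CPM on day 7, against 313, 201 and 154 CPM on day 4, and rose by 2.88 ± 0.63 (SE; adjusted p = 0.0142). That call was lost without the library of cow D day 7 (adjusted p = 0.0858), cow E day 7 (0.0768), cow D day 4 (0.0534), cow E day 4 (0.0509) or cow F day 4 (0.066). The prostaglandin E receptor PTGER1 fell, with -1.88 ± 0.46 (SE; adjusted p = 0.021), lost without the library of cow E day 7 (adjusted p = 0.101), cow F day 7 (0.0544), cow E day 4 (0.0924) or cow F day 4 (0.0948). No member of the circadian clock (19), the mitochondrially encoded genes (13), or the secretory (8), ciliated (16), macrophage (13), neutrophil (10), B cell (9) and red blood cell (5) marker lists was called by edgeR. Without cow F's day 7 library 10 ciliated, 1 secretory and 1 clock gene were called lower.

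**Figure D4:**
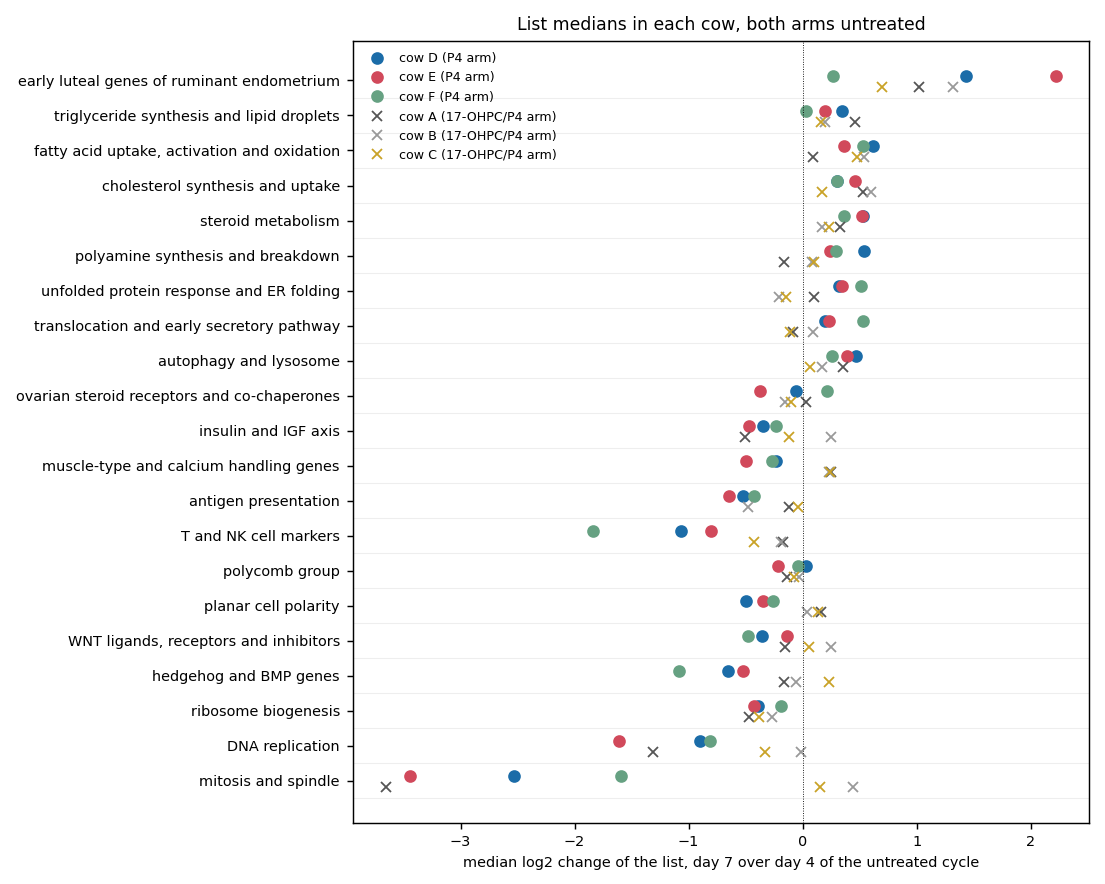
Median log2 change on day 7 over day 4 of the untreated cycle for 21 gene lists in each of 6 cows, with cows D, E and F of the P4 arm as filled circles and cows A, B and C of the 17-OHPC/P4 arm as crosses. The mitosis medians of cows D, E and F lie at -2.53, -3.45 and -1.59, and the 3 crosses of that list spread over both sides of 0.

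The 17-OHPC/P4 arm gave a second set of 3 untreated cows. There 105 genes rose (0.535%) and 3 fell (0.0153%) in the same fit. Of the risers in cows D, E and F, 96 were also called in cows A, B and C, which is 6.25% of the 1535 and 91.4% of the 105. All 3 genes that fell there also fell in cows D, E and F (0.208% of the 1440). A larger count of calls does not show a larger change, so the difference between the arms was tested itself. No gene passed (smallest adjusted p = 0.0742, edgeR), 2147 genes (10.9%) had an unadjusted p under 0.05, DESeq2 called 472 and limma voom 0. Without the day 4 library of cow A 19 genes passed, and without the day 7 library of cow F 8 did. Side by side, the log2 change of DGAT2 was 7.18 ± 0.74 in the P4 arm and 7.02 ± 0.73 in the 17-OHPC/P4 arm. That of MYH7B was 5.90 ± 0.52 in the P4 arm and 5.23 ± 0.50 in the 17-OHPC/P4 arm. MEP1B had 4.36 ± 0.46 in the P4 arm and 4.44 ± 0.47 in the 17-OHPC/P4 arm, and PGR -1.05 ± 0.25 in the P4 arm and -1.04 ± 0.25 in the 17-OHPC/P4 arm.

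Genes with the smallest p for that difference did not pass adjustment. RNASE4 differed by 2.40 ± 0.29 between the arms (unadjusted p = 5.05e-06), with 2.54 ± 0.22 in the P4 arm and 0.14 ± 0.20 in the 17-OHPC/P4 arm. SMCO4 (2.45 ± 0.36, unadjusted p = 3.17e-05) and SERPINA5, a serine protease inhibitor (3.38 ± 0.51, unadjusted p = 4.16e-05), leaned the same way. On the other side were THSD4 (-2.59 ± 0.33, unadjusted p = 9.35e-06), UTRN (-1.45 ± 0.19, unadjusted p = 1.13e-05), EPHB4 (-1.83 ± 0.27, unadjusted p = 3.51e-05) and VANGL2 (-2.33 ± 0.36, unadjusted p = 4.25e-05). The changes of UTRN and VANGL2 were 0.21 ± 0.13 and 0.18 ± 0.25 in the 17-OHPC/P4 arm. Median changes of the called genes in that arm were 0.64 for the 1535 risers, 1391 of them positive, and -0.32 for the 1440 that fell, 244 of them positive. Since these genes were chosen for their change in cows D, E and F, smaller values in the other cows are no evidence of a difference.

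**Figure D5:**
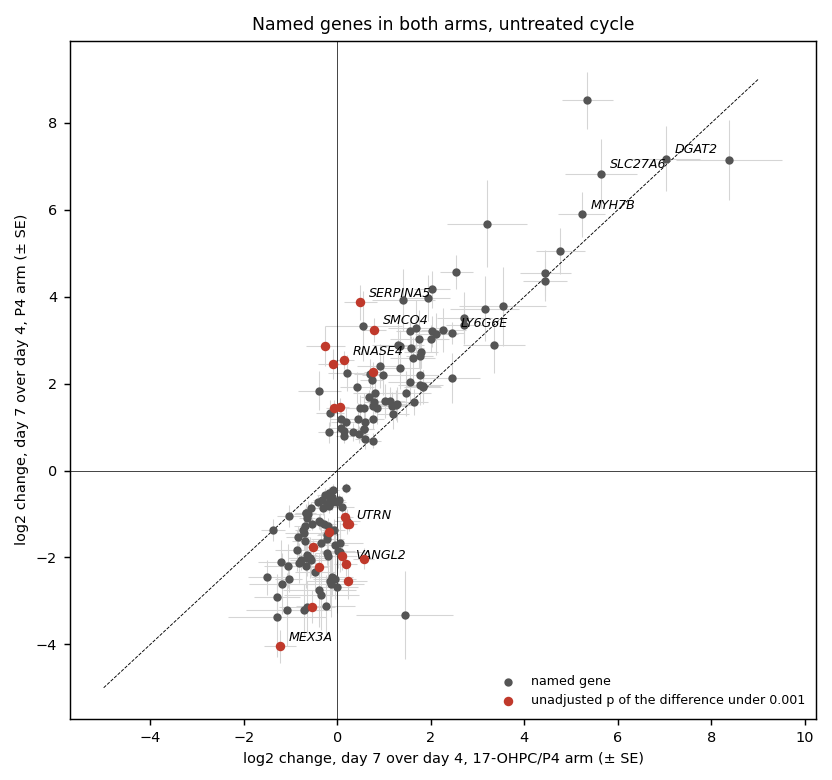
Log2 change on day 7 over day 4 in the P4 arm (vertical) and in the 17-OHPC/P4 arm (horizontal) for 171 named genes called in the P4 arm, with SE bars, an equality line (dashed), and genes whose difference had an unadjusted p under 0.001 in red (20 genes, none past adjustment). DGAT2 and MYH7B lie near the line, and RNASE4, SERPINA5, VANGL2 and UTRN lie near 0 on the horizontal axis.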

How the data were processed

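The members and the 44 gene lists were chosen with earlier results of these data known. The authors deposited raw counts for 38001 genes, of which 17715 lack a symbol. Tools named in the submitters' processing notes are STAR, featureCounts, cutadapt, FastQC and DESeq2. Build, annotation, strand setting and pair counting: not given in the sources used here. Without a stated strand setting, reads of overlapping genes cannot be told apart, and overlaps were read from RefSeq ARS-UCD2.0 by symbol. Low counts were mostly even (79.7% to 81.4% of counts from 1 to 5 in the 6 libraries), so the number of independent fragments may lie below the count.

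edgeR 4.0.16 in R 4.3.3 (filterByExpr, TMM, robust quasi-likelihood F test) was fitted to all 18 libraries, with the cow as a block and terms for each arm's control and treated day 7. Benjamini-Hochberg adjustment ran over 19638 genes and adjusted p under 0.05 was called. The SE is the log2 change divided by the root of F. The biological coefficient of variation was 39.4%, and 51.4% without the block. The pairing comes from the animal letter in the labels. Deviations of a cow's day 7 and day 4 libraries from their group means correlated at 0.48, 0.543, 0.679, 0.314, -0.0107 and -0.00343 in cows A to F. No 2 libraries of a group agreed within sampling noise (chi-square per gene 58.2 to 389.5 in the P4 arm). The code was tested on simulated data.

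Named genes are the 12 higher and 12 lower with the smallest p, up to 4 called members per list and direction, a fixed set of genes, and 5 each way for the difference between arms. The text gives those that carry each comparison. ANPEP, CXCL14 and POLR1A fall outside that rule and were chosen after their values were seen. Alternatives were no block, RLE factors, no filter, DESeq2 1.42.0, limma voom (limma 3.58.1), 6 or 12 untreated libraries alone, and leaving out each library or cow.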

Additional observations from a re-analysis of the deposited data

How the results depend on the processing

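Fitted without the replicate block, 912 genes were higher and 786 lower on day 7. DESeq2 with the block gave 2607 and 2280, the 6 untreated libraries of the P4 arm alone 719 and 470, no filter on low counts 838 lower, and the 12 untreated libraries of both arms 860 lower. RLE factors (1696 higher, 1293 lower) and limma voom (1694 and 1757) kept both counts within 1.5 times. Leaving out 1 library or cow gave 420 to 2015 higher and 238 to 2228 lower, both lowest without cow E and highest without cow F's day 7 library. For the difference between the arms DESeq2 called 472 genes and leaving out 1 library or cow gave 0 to 19. The causes were not tested. Of 2975 called genes, 1670 (56.1%) were also called without the block and 329 (11.1%) under every alternative. Over 176 named genes and their alternatives, 2086 of 2815 results kept their direction and call, 720 lost the call, 9 gained it and 0 changed sign. MCM3, MCM4, SMO, ID3, SMAD7, ERO1A, CD2, IGFBP4, PAPPA2 and CGN1, called whichever library was left out, were lost when 1 whole cow was left out. With 3 cows, genes under about 1 CPM rest on few reads.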

Other observations

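Of 30 amino acid transporters 5 rose (16.7%, against 7.82% of all genes) and 3 fell (10.0%, against 7.33%), with a median log2 change of 0.02 (0.24 without the library of cow E day 4) on day 7 over day 4, and risers ran from 2 without the library of cow D day 7 or cow F day 4 to 6 without that of cow F day 7. Those that fell ran from 0 without the library of cow D day 4 or cow D day 7 or cow E day 4 or cow E day 7 to 5 without that of cow F day 7 (1 without the animal block). SLC43A1, a carrier of large neutral amino acids, had 116, 109 and 107 CPM on day 7, against 46.7, 56.3 and 24.1 CPM on day 4 in cows D, E and F. It rose by 1.46 ± 0.20 (SE; adjusted p = 0.00211) by edgeR's quasi-likelihood test, and was called whichever library was left out. The taurine transporter SLC6A6 had 45.6, 51.7 and 18.6 CPM on day 7, against 172, 94.4 and 51.7 CPM on day 4, a change of -1.43 ± 0.41 (SE; adjusted p = 0.0384). That call was lost without the library of cow D day 7 (adjusted p = 0.168), cow E day 7 (0.0735), cow F day 7 (0.088), cow D day 4 (0.186), cow E day 4 (0.0686) or cow F day 4 (0.0704), and without the animal block (0.0875). Among 24 genes of the dystrophin complex and its glycosylation 3 fell (12.5%, against 7.33% of all genes) and 1 rose (4.17%, against 7.82%). Those that fell ran from 1 without the library of cow D day 4 or cow D day 7 to 3 without that of cow E day 7 or cow F day 7. UTRN was the leading member. DTNB, a dystrobrevin, had 100.2, 72 and 56.7 CPM on day 7, against 18.5, 21.8 and 19.3 CPM on day 4, and rose by 1.91 ± 0.37 (SE; adjusted p = 0.00835), lost without the library of cow D day 7 (adjusted p = 0.0525) or cow E day 7 (0.0503). POMGNT1, which glycosylates dystroglycan, had 80.8, 93.5 and 74.2 CPM on day 7, against 143, 158 and 138 CPM on day 4, a change of -0.82 ± 0.16 (SE; adjusted p = 0.00856), lost without the library of cow D day 7 (adjusted p = 0.0502) or cow D day 4 (0.0508).

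Of 25 interferon-stimulated genes 1 rose (4%, against 7.82% of all genes) and none fell. The median was -0.16 (-0.36 without the library of cow E day 4 and 0.42 without the library of cow F day 4), and 2 were called lower without cow F's day 7 library. RIGI, a sensor of viral RNA, had 78, 116 and 56.2 CPM on day 7, against 29.3, 24.3 and 26.5 CPM on day 4, and rose by 1.58 ± 0.20 (SE; adjusted p = 0.00183), and was called whichever library was left out. RIGI overlaps TOPORS. Of 23 immediate early genes, which respond within minutes to signals, 17 were positive with a median of 0.87 (0.28 without the library of cow F day 7 and 1.36 without the library of cow F day 4). Of the 23, 1 was called higher (4.35%, against 7.82% of all genes). That gene, KLF4, had 60.4, 70.1 and 99 CPM on day 7, against 12.9, 12.9 and 17.2 CPM on day 4, and rose by 2.40 ± 0.51 (SE; adjusted p = 0.0122), lost without the library of cow D day 7 (adjusted p = 0.0584). The matrix list, with 4 risers and 2 that fell among 37, had a median of -0.08 (-0.30 without the library of cow D day 7 and 0.50 without the library of cow F day 4), and risers ran from 0 without the library of cow E day 7 to 6 without that of cow F day 7. TIMP2, an inhibitor of metalloproteases, had 1753, 2206 and 1533 CPM on day 7, against 694, 319 and 300.4 CPM on day 4, and rose by 2.04 ± 0.50 (SE; adjusted p = 0.0208). The TIMP2 call was lost without the library of cow D day 7 (adjusted p = 0.103), cow E day 7 (0.0734), cow E day 4 (0.0903) or cow F day 4 (0.101). Medians of the matrix list within cows D, E and F were 0.42, 0.49 and -0.83, so cow F stood on the other side of 0.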
